A study of Mus musculus with 13 samples.

Results

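The genes described here encode the machinery that docks, primes, fuses and recycles secretory vesicles, above all the synaptic vesicle. They were taken by name from the protein-coding genes of the mouse annotation GENCODE M21: the synaptotagmins (Syt), synapsins (Syn), SV2 proteins (Sv2), SNAP proteins (Snap), syntaxins (Stx) and their binding proteins (Stxbp), VAMP proteins (Vamp), Rab3 proteins, complexins (Cplx), RIM proteins (Rims), Unc13 proteins, synaptogyrins (Syngr) and Doc2 proteins, with rabphilin (Rph3a) and synaptophysin (Syp). This gave 82 of the 55416 genes counted. The name rule takes broadly acting membrane-fusion genes along with synaptic ones, and it takes Snap91, a clathrin adaptor of vesicle recycling, by its symbol alone.

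Polyadenylated RNA was sequenced from 13 pieces of mouse tissue. The PDGFB tumors (n = 5, genotype PDGFB-shP53) were induced by a lentivirus that carried PDGFB, a platelet-derived growth factor, and a short hairpin RNA against p53. The RAS tumors (n = 5, genotype HrasV12-shp53) were induced by one that carried HRasV12, an activated Ras protein, and the same kind of hairpin. The series title places both in CNP-Cre mice, in which the promoter of the oligodendrocyte gene Cnp drives Cre recombinase. Tumor pieces were taken as GFP-positive tissue at the clinical endpoint and are labelled as tumor cells. Normal brain (n = 3, genotype WT, titles that mark both sexes) is labelled as brain cells, and the labels describe normal tissue cut away from GFP-positive tumor under a dissecting microscope. One of the 3 has a title whose first letters differ from the other 2, and it was placed in the group by its tissue label. Whether these WT samples came from tumor-bearing mice, and from which brain region, is not stated; ages are not given for any group. Nothing in the labels says that a replicate number marks a litter or a day. The p-values below measure the spread between these pieces of tissue.

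At a synapse, a vesicle is filled with transmitter, tethered at the active zone by Rab3 and RIM proteins and primed by Unc13 proteins. Fusion is driven by SNARE proteins, with one on the vesicle (Vamp2) and others on the plasma membrane (Stx1 proteins and Snap25). Complexins hold the assembled SNAREs, and Syt1 binds calcium and triggers release. Other syntaxins, VAMP proteins and Snap23 serve membrane traffic in nearly all cells. In brain, the synaptic members are made mainly by neurons, and glial cells and their tumors use the broadly acting ones.

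Libraries held 13952738 to 15607754 reads, of which 529162 to 643055 were counted for genes. Of the reads mapped to a single place, 95.2% to 95.7% were assigned to no gene. Genes with an exon that overlaps an exon of a gene on the opposite strand made up 17.1% of the annotated genes and held 84.0% of the reads counted for genes. Among the 82 genes here, 21 had such an overlap and held 76.3% of the 37499 reads counted for the set, or 254 reads per kb of exon, against 25.2 reads per kb for the other 61. The same 2 densities over all annotated genes were 187 and 12.5 reads per kb. Whether the kit named in the labels kept the strand is not stated, and the strand setting of the count is not given in the sources used here, so the reads of a gene and of its opposite-strand partner cannot be told apart. Counts and sums of the 61 genes with no such overlap are therefore also given apart. Which strand their own reads came from is not known either, so setting them apart does not remove this doubt. RAS tumor 2 stands away from the other 4 RAS tumors in many of these genes, and results that rest on it are also given without it, those against normal brain together.

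Promoter windows from RefSeq (GRCm38.p6, 250 bases before to 50 after the transcript start) were found for 62 of the 82 genes, in 80 windows. A selection of 4 is shown, 5′ to 3′ on the gene's strand, for the contrast they give with the counts below. Syn1 (chrX:20920869-20921168, minus strand) and Rph3a (chr5:121009489-121009788, minus strand, the one of its 3 windows with a motif match) belong to genes that were lower in both tumor types. Unc13a (chr8:71671708-71672007, minus strand) and Syngr2 (chr11:117809417-117809716, plus strand) belong to genes that were higher in both, Syngr2 in a fit with no low-count filter. Capitals mark letter matches, on either strand, to TTCAGCACC and the RE1 right motif (the left and right parts of RE1, the element of the neuronal gene repressor REST), to TGACGTCA (the cyclic AMP response element) and to GGGCGG (the GC box); 2 GC boxes of Syngr2 run into each other.
Syn1: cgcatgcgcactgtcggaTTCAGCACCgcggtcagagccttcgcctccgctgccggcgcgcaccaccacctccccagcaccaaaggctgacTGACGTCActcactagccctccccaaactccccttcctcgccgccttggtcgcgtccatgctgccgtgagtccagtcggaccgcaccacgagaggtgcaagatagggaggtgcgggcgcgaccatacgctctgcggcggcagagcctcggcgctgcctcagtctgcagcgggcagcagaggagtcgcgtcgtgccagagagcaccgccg
Rph3a: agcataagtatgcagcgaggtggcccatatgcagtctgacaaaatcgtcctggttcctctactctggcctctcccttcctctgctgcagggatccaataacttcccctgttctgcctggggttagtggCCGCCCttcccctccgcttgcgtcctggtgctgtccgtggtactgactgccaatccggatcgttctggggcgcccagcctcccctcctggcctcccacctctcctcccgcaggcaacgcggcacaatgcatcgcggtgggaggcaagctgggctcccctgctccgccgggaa
Unc13a: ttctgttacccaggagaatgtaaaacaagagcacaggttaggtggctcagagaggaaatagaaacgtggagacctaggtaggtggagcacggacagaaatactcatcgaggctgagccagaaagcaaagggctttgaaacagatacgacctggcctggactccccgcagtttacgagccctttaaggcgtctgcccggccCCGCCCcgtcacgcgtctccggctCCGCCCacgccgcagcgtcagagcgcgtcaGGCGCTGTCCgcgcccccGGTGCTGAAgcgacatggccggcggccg
Syngr2: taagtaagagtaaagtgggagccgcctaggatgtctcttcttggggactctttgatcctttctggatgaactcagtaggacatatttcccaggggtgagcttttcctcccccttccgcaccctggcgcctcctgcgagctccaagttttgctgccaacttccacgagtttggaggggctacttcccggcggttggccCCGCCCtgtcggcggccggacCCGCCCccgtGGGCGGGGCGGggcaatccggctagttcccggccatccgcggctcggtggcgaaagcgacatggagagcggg

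The left RE1 part was present in 2 of the 80 windows, those of Syn1 and Unc13a, and in 0.371% of all 32851 windows of the table. The right part was in 1 window of the set, that of Unc13a, and in 0.521% of all windows. Unc13a was thus the gene of the set with letters of both parts, at positions 5 (right) and 23 (left) after its start, on the strand opposite to the gene. In Syn1 the left part began 232 bases before the start and the cyclic AMP element 159 bases before it. The cyclic AMP element was found in 2 windows of the set (Syn1 and Stxbp3) and in 1.79% of all windows. GC boxes were common, in 53 of 80 windows of the set (66.2%) and in 35.7% of all windows. These are matches of letters in one window per start and describe neither binding nor control.

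Of the 82 genes, 39 had enough reads to be tested, 43 did not, and 3 of those (Cplx4, Doc2g and Syt8) had no read in any library. Against normal brain, 26 of the 39 were lower in PDGFB tumors, 1 was higher and 12 were not called, at an adjusted p under 0.05 (edgeR quasi-likelihood test, Benjamini-Hochberg adjustment over all 7722 genes tested). Over all genes tested, 25.1% were lower and 20.2% were higher in that comparison (45.3% in either direction). In RAS tumors 27 were lower, 3 were higher and 9 were not called, and over all genes 29.3% were lower and 26.9% higher. The median log2 fold change of the 39 was -2.46 in PDGFB tumors and -2.77 in RAS tumors, against 0.00 and 0.02 for all genes tested. Of the 39, 12 passed the low-count filter only with the help of the normal brain libraries. Their counts in normal brain were thus a condition of being tested, which favors lower values in tumors. The 12 were Rab3b, Rab3c, Rims1, Rph3a, Stx1a, Sv2a, Sv2b, Syngr1, Syt2, Syt7, Syt13 and Vamp1. All of them but Rab3b, which was not called, were lower in both tumor types. Among the other 27, whose tumor libraries alone sufficed, 15 were lower and 1 was higher in PDGFB tumors, and 16 were lower and 3 higher in RAS tumors. In the 24 tested genes with no opposite-strand exon, 16 were lower and 0 higher in PDGFB tumors, and 17 were lower and 0 higher in RAS tumors. Of these 24, 9 passed the filter only with the normal brain libraries and were lower in both; of the other 15, 7 were lower in PDGFB tumors and 8 in RAS tumors. All genes of that kind had 23.1% lower and 17.8% higher in PDGFB tumors, and 26.7% lower and 27.5% higher in RAS tumors. All tissue was bulk, so fewer cells of a type and less RNA per cell cannot be told apart in any of these values.

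**Figure D1:**
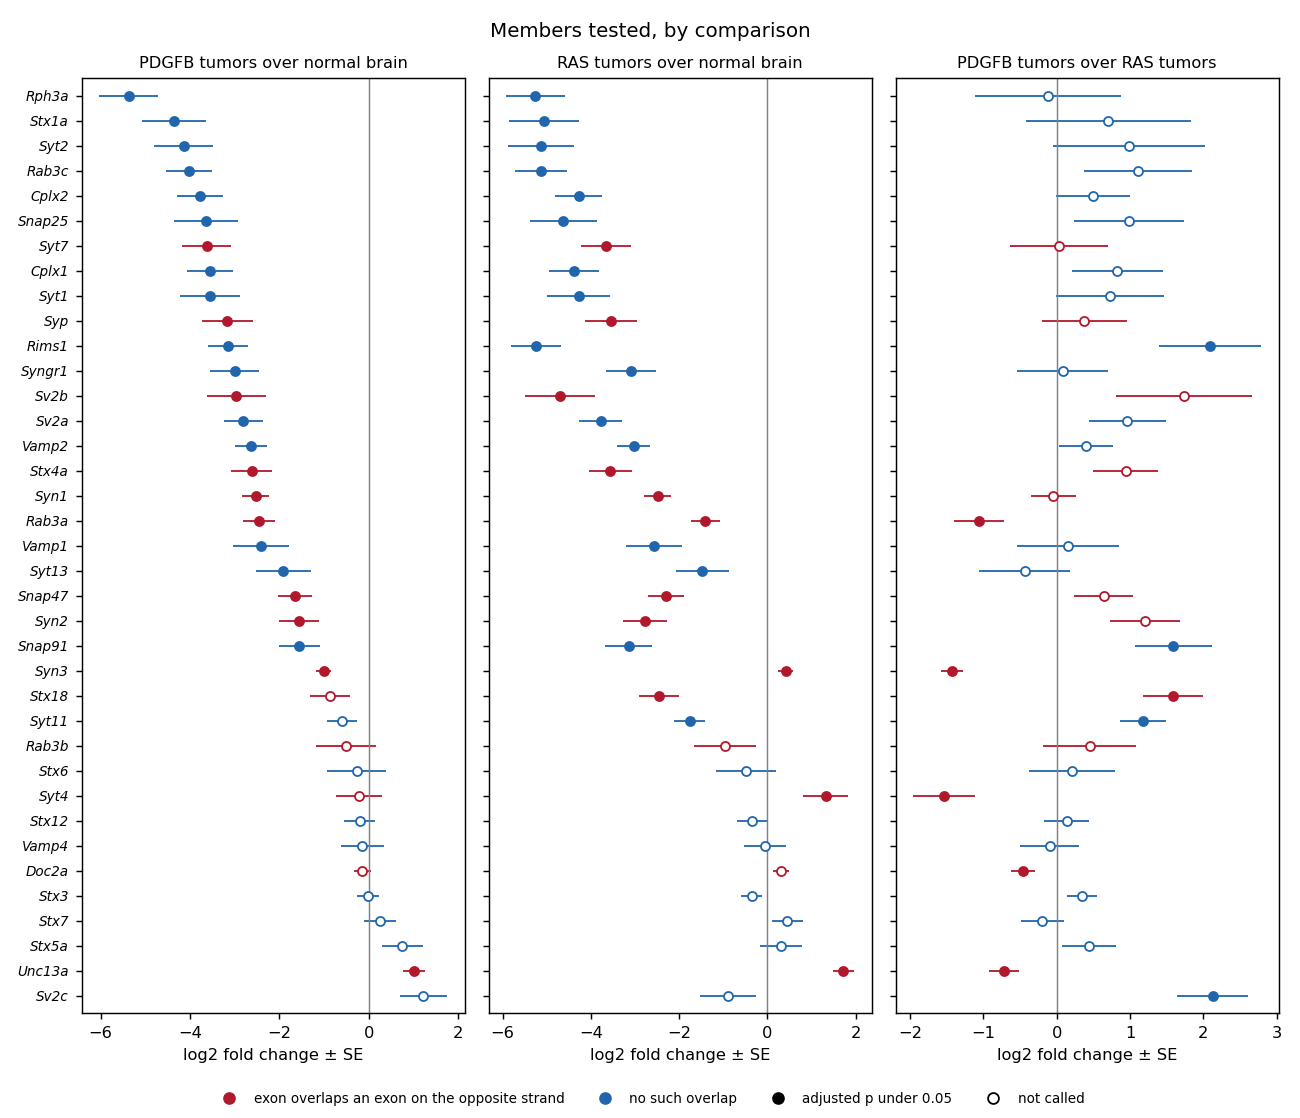
Log2 fold change (x axis, with SE) of 37 tested genes (one row each) in the 3 comparisons. Red points are genes with an opposite-strand exon, blue points those without; filled points have an adjusted p under 0.05. Most rows lie left of 0 in both comparisons with normal brain, while Unc13a lies right of 0 in both and rows such as Stx12, Stx7 and Vamp4 lie near 0.

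The Syt and Doc2 genes, families of calcium sensors in which some members bind no calcium, made up 20 of the 82 genes. Of their 7 tested members, 4 were lower in PDGFB tumors, and 5 were lower and 1 higher in RAS tumors. All genes tested had 25.1% lower and 20.2% higher in PDGFB tumors, and 29.3% lower and 26.9% higher in RAS tumors. Among the lower Syt genes, Syt2, Syt7 and Syt13 passed the low-count filter only with the normal brain libraries. Syt1 (ENSMUSG00000035864, chr10:108497650-109010982 in GRCm38, minus strand), the fast calcium sensor of forebrain synapses, had 11, 13, 15, 21 and 7 reads in the 5 PDGFB tumors and 0, 33, 1, 0 and 3 in the 5 RAS tumors, against 126, 111 and 140 in the 3 normal brains. Every tumor lay below every normal brain, and RAS tumor 2 held most of the RAS reads. The log2 fold change was -3.55 ± 0.67 (SE, edgeR adjusted p = 4.12e-04) in PDGFB tumors and -4.27 ± 0.71 (adjusted p = 8.17e-05) in RAS tumors. Syt2, the related sensor of fast hindbrain and inhibitory synapses, had 0 to 3 reads in PDGFB tumors and 0 or 1 in RAS tumors, against 11 to 21 in normal brain. Its count ratio showed RAS tumors 43.0-fold lower than normal brain (95% counting interval 11.3 to 365), and the log2 fold change in PDGFB tumors was -4.15 ± 0.65 (edgeR adjusted p = 8.22e-05). Syt7, a slower, high-affinity sensor, had 1 to 9 reads in PDGFB tumors and 0 to 7 in RAS tumors, against 31 to 48 in normal brain, with log2 fold changes of -3.63 ± 0.55 and -3.66 ± 0.56 against normal brain (edgeR adjusted p = 5.78e-05 and 3.56e-05).

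Syt13, a synaptotagmin with no calcium-binding residues, had 2 to 7 reads in PDGFB tumors and 0 to 12 in RAS tumors, against 9 to 18 in normal brain. Its lower call in PDGFB tumors (log2 fold change -1.91 ± 0.62, edgeR adjusted p = 0.0182) was lost without normal brain 2 (0.0557) or 3 (0.135), and the one in RAS tumors (-1.47 ± 0.61, adjusted p = 0.0467) was lost in 15 alternative fits.

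Not all Syt and Doc2 genes followed Syt1. Syt11, a synaptotagmin that does not bind calcium and acts in vesicle recycling, was counted at 59, 68, 59, 67 and 69 reads in PDGFB tumors and at 27, 44, 35, 16 and 8 reads in RAS tumors, against 90, 75 and 65 in normal brain. PDGFB tumors overlapped normal brain (log2 fold change -0.59 ± 0.34, edgeR adjusted p = 0.163), whereas all RAS tumors lay below it (-1.76 ± 0.35, adjusted p = 3.50e-04). Syt4, a synaptotagmin of dense-core vesicles, had 27, 31, 14, 18 and 26 reads in PDGFB tumors and 92, 65, 94, 46 and 9 in RAS tumors, against 18, 27 and 18 in normal brain. It was higher in RAS tumors by 1.33 ± 0.51 on the log2 scale (edgeR adjusted p = 0.0336), although RAS tumor 5 lay below all normal brains. That call was lost in 5 of the alternative fits, including those without RAS tumor 1 (adjusted p = 0.0555), RAS tumor 3 (0.0613), normal brain 1 (0.0983) or normal brain 3 (0.0961). Syt4 has an opposite-strand partner, Gm26658, which overlaps it head to head over 566 bases and had 176 to 2262 reads in RAS tumors, with the lowest count in the same RAS tumor 5. Doc2a, a calcium sensor of spontaneous release, was not called against normal brain in either tumor type, and its tail-to-tail partner Ino80e, which overlaps it over 1103 bases, was lower in both (log2 fold changes -2.49 ± 0.53 in PDGFB tumors and -3.49 ± 0.55 in RAS tumors, edgeR adjusted p = 0.00107 and 5.16e-05).

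**Figure D2:**
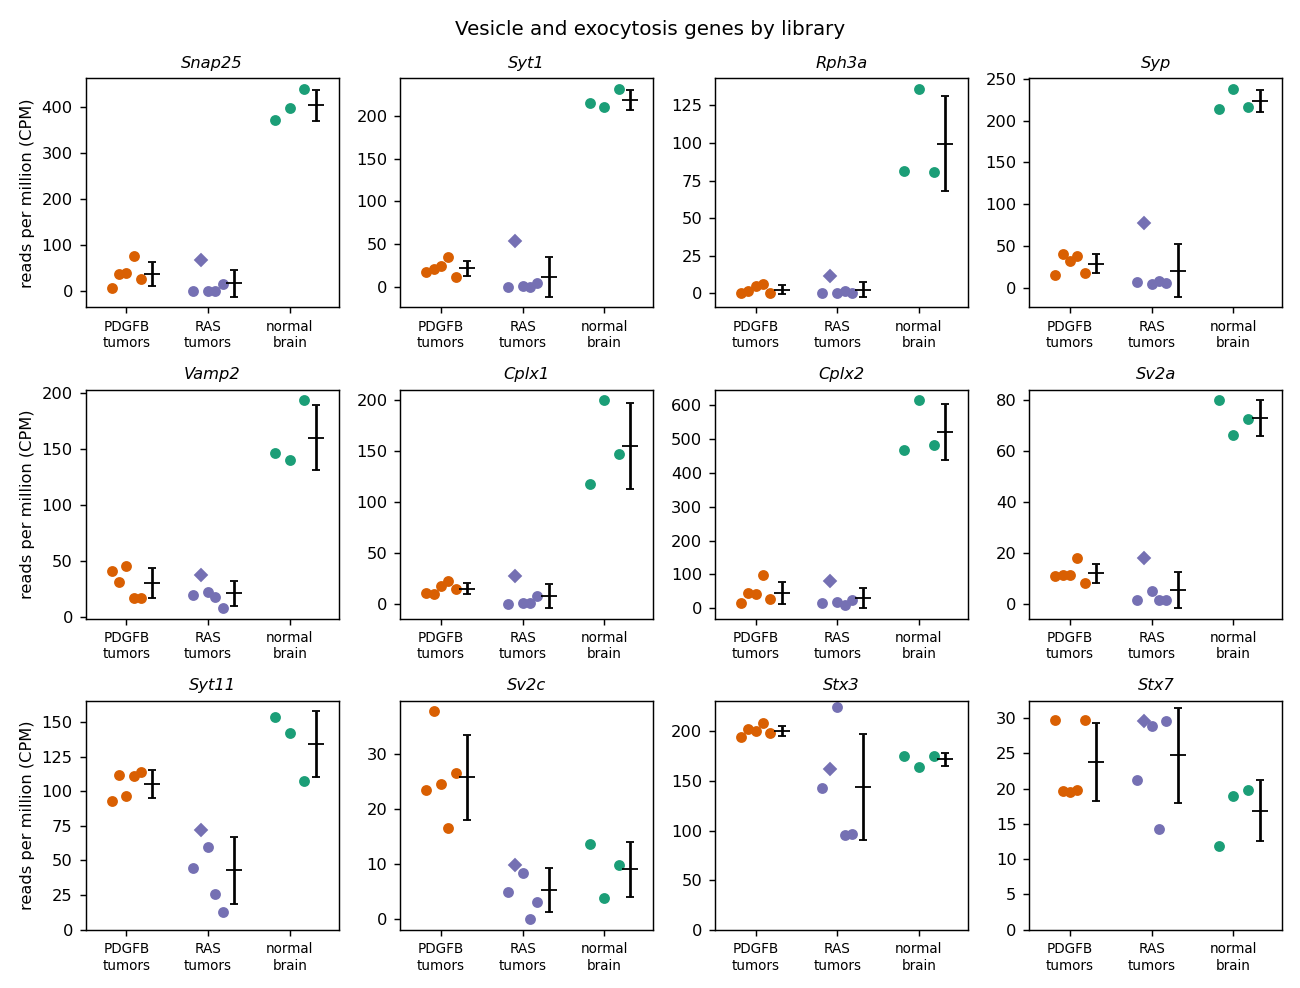
Counts per 1000000 reads of genes (CPM, y axis, linear) of 12 genes with one point per library; the bar beside each group is the mean ± SD, and the diamond is RAS tumor 2. In the first 8 panels (Snap25 to Sv2a) all tumors lie below all normal brains, while Syt11 and Sv2c separate the tumor types and Stx3 and Stx7 overlap between RAS tumors and normal brain.

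SNARE proteins numbered 26, of which 14 were tested. The neuronal SNAREs Snap25, Stx1a, Vamp1 and Vamp2, which overlap no opposite-strand exon, were all lower in both tumor types. Snap25 and Vamp2 passed the low-count filter on their tumor libraries, while Stx1a and Vamp1 passed only with the normal brain libraries. Snap25 (ENSMUSG00000027273, chr2:136713453-136782428 in GRCm38, plus strand), the plasma membrane SNARE of synaptic release, had 5, 23, 24, 47 and 17 reads in PDGFB tumors and 0, 42, 1, 0 and 11 in RAS tumors, against 219, 211 and 266 in normal brain. The groups did not overlap, and RAS tumor 2 stood close to the highest PDGFB tumor. Its log2 fold change was -3.64 ± 0.72 in PDGFB tumors (edgeR adjusted p = 5.86e-04) and -4.62 ± 0.77 in RAS tumors (8.04e-05). Vamp2, the vesicle SNARE, had 26, 19, 28, 10 and 10 reads in PDGFB tumors and 12, 23, 13, 11 and 5 in RAS tumors, against 86, 74 and 117 in normal brain, with log2 fold changes of -2.63 ± 0.36 and -3.03 ± 0.37 (edgeR adjusted p = 2.52e-05 and 4.68e-06). Stx1a, the syntaxin that pairs with Snap25, had 4 reads over the 5 PDGFB tumors and 2 over the 5 RAS tumors, against 16, 18 and 11 reads in normal brain. The count ratio put RAS tumors 40.3-fold below normal brain (95% counting interval 10.5 to 343). Of these, Vamp1 lost its call in PDGFB tumors without normal brain 1 (edgeR adjusted p = 0.0715).

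Of the 9 other tested SNAREs, all of which passed the filter on their tumor libraries alone, 2 were lower in PDGFB tumors (Stx4a and Snap47). In RAS tumors 3 were lower (these and Stx18). None was higher in either tumor type, and 7 and 6 were not called. The 3 that were called all overlap an opposite-strand exon. All genes tested had 25.1% lower and 20.2% higher in PDGFB tumors, and 29.3% lower and 26.9% higher in RAS tumors. The shares lower among these 9 were thus near those of all genes. Stx3, a syntaxin of apical and dendritic traffic, had 124, 123, 123, 126 and 120 reads in PDGFB tumors and 87, 99, 132, 60 and 62 in RAS tumors, against 103, 87 and 106 in normal brain. The values of RAS tumors ran on both sides of normal brain, and the log2 fold changes were -0.01 ± 0.24 in PDGFB tumors and -0.35 ± 0.24 in RAS tumors (edgeR adjusted p = 0.974 and 0.223). Stx7 and Stx12, syntaxins of endosomes, Stx5a of the Golgi, Stx6 and Vamp4 of the trans-Golgi network all had log2 fold changes between -0.48 and 0.75 against normal brain and were not called. Stx4a, a plasma membrane syntaxin of many cells, was lower in both tumor types (log2 fold changes -2.62 ± 0.46 and -3.56 ± 0.48, edgeR adjusted p = 2.27e-04 and 1.20e-05).

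Summed over the 4 neuronal SNAREs with no opposite-strand exon, the level was 49.6 to 109 CPM (counts per 1000000 reads counted for genes) in PDGFB tumors and 19.1 to 115 CPM in RAS tumors (19.1 to 34.2 without RAS tumor 2), against 584 to 668 CPM in normal brain. The other SNAREs with no such exon summed to 328 to 388 CPM in PDGFB tumors and 204 to 364 CPM in RAS tumors, against 289 to 295 CPM in normal brain. These sums were scaled by library totals and not by the TMM factors of the tests, and their differences were not tested. Per kb of exon, the order of single genes changed with the tissue. Among tested genes with no opposite-strand exon, normal brain had the highest mean level for Cplx2 (106 CPM per kb), then Cplx1 (70.8), Snap25 (59.5), Vamp2 (42.0) and Stx3 (30.1). Among the same tested genes, in PDGFB tumors Stx3 came first (35.2 CPM per kb), then Syt11 (20.2), Cplx2 (9.13), Stx12 (8.97) and Vamp2 (7.91). RAS tumors likewise had Stx3 first (25.2 CPM per kb), then Syt11 (8.21) and Stx12 (7.47), with Vamp8 (8.47), which had too few reads to be tested, between Stx3 and Syt11.

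**Figure D3:**
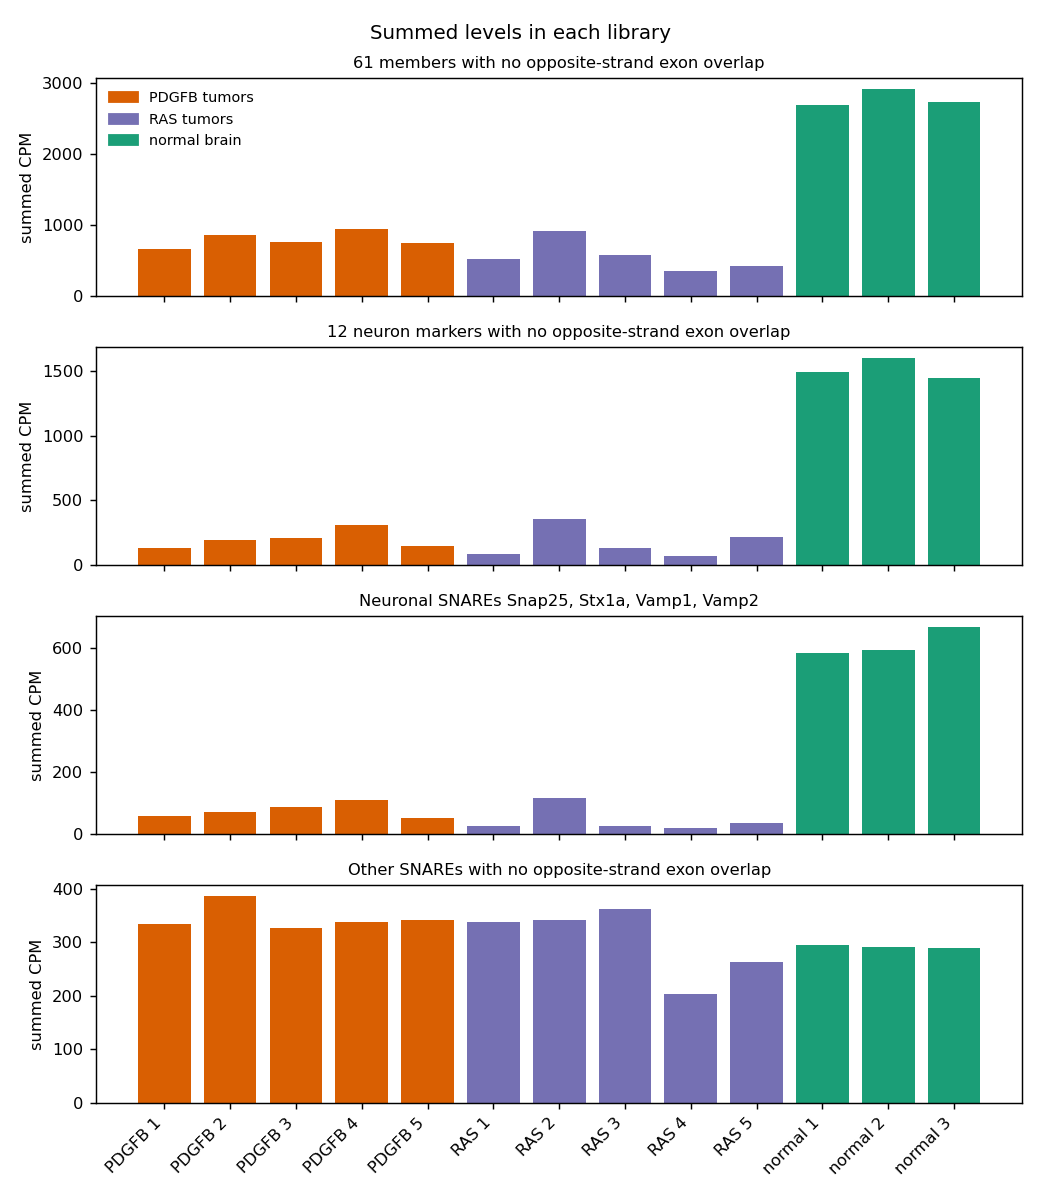
Summed CPM (y axis, from 0) in each of the 13 libraries (bars) for 4 sets of genes with no opposite-strand exon: 61 vesicle and exocytosis genes, 12 neuron markers, 4 neuronal SNAREs and the other SNAREs. The 3 normal brains are highest in the first 3 panels, and RAS tumor 2 is the highest RAS tumor in each of those. For the other SNAREs, all PDGFB tumors (328 to 388 CPM) lie above all normal brains (289 to 295 CPM) when scaled by library totals. The TMM factors of the tests, 1.04 to 1.11 in PDGFB tumors and 0.908 to 0.931 in normal brain, are not applied here. They would bring these 2 groups closer, and the separation was not tested.

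SNARE regulators had 4 tested members of 15. The complexins Cplx1 and Cplx2, which bind the assembled SNARE complex, were lower in both tumor types. Cplx2 had 9, 27, 25, 60 and 16 reads in PDGFB tumors and 9, 49, 11, 5 and 15 in RAS tumors, against 274, 326 and 292 in normal brain (log2 fold changes -3.77 ± 0.51 and -4.27 ± 0.53, edgeR adjusted p = 2.32e-05 and 5.17e-06). For Cplx1 the log2 fold changes were -3.55 ± 0.52 and -4.38 ± 0.57 (edgeR adjusted p = 4.85e-05 and 7.57e-06), and no tumor overlapped normal brain for either complexin.

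Unc13a (ENSMUSG00000034799, chr8:71624417-71671757 in GRCm38, minus strand), the Munc13-1 gene, whose product primes vesicles by opening Stx1, was the one tested gene of the set that was higher in both tumor types. It had 377, 267, 330, 286 and 380 reads in PDGFB tumors and 385, 432, 465, 388 and 776 in RAS tumors, against 125, 127 and 135 in normal brain. No tumor overlapped normal brain, and RAS tumor 5 was the highest. The log2 fold change was 1.01 ± 0.24 in PDGFB tumors (edgeR adjusted p = 0.00247) and 1.73 ± 0.25 in RAS tumors (1.98e-05). Its last exons overlap those of Colgalt1, a collagen galactosyltransferase gene, tail to tail over 495 bases on the opposite strand. Colgalt1 had 13, 14, 7, 12 and 12 reads in PDGFB tumors and 20, 17, 8, 8 and 24 in RAS tumors, against 32, 35 and 46 in normal brain, so the pair moved in opposite directions (Colgalt1 log2 fold changes -2.02 ± 0.34 and -1.48 ± 0.33, edgeR adjusted p = 1.35e-04 and 9.72e-04). Which strand gave the Unc13a reads was not tested.

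Among Rab3 and active zone genes, 5 of 9 were tested, and 4 of the 5 were lower in each tumor type (Rph3a, Rab3c, Rims1 and Rab3a). Of these 4, Rab3a alone passed the low-count filter on its tumor libraries, while Rph3a, Rab3c and Rims1 passed only with the normal brain libraries. The share lower over all genes tested was 25.1% in PDGFB tumors and 29.3% in RAS tumors. Rph3a (ENSMUSG00000029608, chr5:120940499-121010092 in GRCm38, minus strand), a Rab3 effector on synaptic vesicles, had 0, 1, 3, 4 and 0 reads in PDGFB tumors and 0, 7, 0, 1 and 0 in RAS tumors, against 48, 72 and 49 in normal brain. Its log2 fold change was -5.37 ± 0.66 in PDGFB tumors and -5.25 ± 0.67 in RAS tumors (edgeR adjusted p = 9.48e-06 and 6.23e-06). RAS tumor 2 held 7 of the RAS reads. Rab3c, a vesicle GTPase, had 2 to 6 reads in PDGFB tumors and 0 to 8 in RAS tumors, against 55 to 63 in normal brain (log2 fold changes -4.02 ± 0.52 and -5.13 ± 0.58, edgeR adjusted p = 1.31e-05 and 2.30e-06). Rims1, the active zone scaffold that binds Rab3, had 3, 3, 3, 7 and 5 reads in PDGFB tumors and 0, 1, 3, 0 and 0 in RAS tumors, against 28, 33 and 30 in normal brain (-3.15 ± 0.45 and -5.24 ± 0.57, adjusted p = 3.74e-05 and 1.47e-06). Rab3a, the main Rab3 of synapses, was lower in both (log2 fold changes -2.46 ± 0.36 in PDGFB tumors and -1.40 ± 0.34 in RAS tumors, edgeR adjusted p = 4.00e-05 and 0.00176), and its partner Mpv17l2, which overlaps it over 29 bases, was lower as well (-2.93 and -1.82).

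Vesicle membrane genes and synapsins had 8 tested members of 11, of which 7 were lower in PDGFB tumors, and 6 were lower and 1 higher in RAS tumors. All genes tested had 25.1% lower and 20.2% higher in PDGFB tumors, and 29.3% lower and 26.9% higher in RAS tumors. Among the lower vesicle membrane genes, Sv2a, Sv2b and Syngr1 passed the low-count filter only with the normal brain libraries. Sv2a, the vesicle glycoprotein that binds levetiracetam, had 7, 7, 7, 11 and 5 reads in PDGFB tumors and 1, 11, 3, 1 and 1 in RAS tumors, against 47, 35 and 44 in normal brain (log2 fold changes -2.81 ± 0.43 and -3.78 ± 0.48, edgeR adjusted p = 7.16e-05 and 6.35e-06). Its relative Sv2b had 0 to 12 reads in PDGFB tumors and 7 reads in RAS tumors, all in RAS tumor 2, against 23 to 47 in normal brain (-2.97 ± 0.66 and -4.70 ± 0.80, adjusted p = 0.00149 and 9.50e-05). Syngr1, a vesicle membrane protein, was lower in both (-3.0 ± 0.55 and -3.08 ± 0.56, edgeR adjusted p = 3.23e-04 and 1.87e-04). Sv2c, the family member of basal ganglia, went otherwise: it had 15, 23, 15, 10 and 16 reads in PDGFB tumors and 3, 6, 5, 0 and 2 in RAS tumors, against 8, 2 and 6 in normal brain. All PDGFB tumors lay above normal brain, but the difference was not called (1.23 ± 0.54, edgeR adjusted p = 0.0711). It was called without PDGFB tumor 4 (adjusted p = 0.0464) and without RAS tumor 2 (0.039), 4 (0.0242) or 5 (0.0434).

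Syp, an abundant membrane protein of synaptic vesicles, had 10, 25, 20, 23 and 11 reads in PDGFB tumors and 4, 47, 3, 5 and 4 in RAS tumors, against 126, 126 and 131 in normal brain (log2 fold changes -3.17 ± 0.57 and -3.55 ± 0.59, edgeR adjusted p = 2.59e-04 and 7.48e-05). Far more reads stood under Gm14703, annotated as antisense to it, which overlaps Syp tail to tail over 875 bases. Gm14703 had 481, 1220, 1260, 1480 and 778 reads in PDGFB tumors and 68, 1802, 172, 121 and 266 in RAS tumors, against 8980, 8996 and 8408 in normal brain (-3.41 ± 0.71 and -4.41 ± 0.73, adjusted p = 8.61e-04 and 7.79e-05). Both genes of the pair were thus lower in both tumor types and highest among RAS tumors in RAS tumor 2.

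The 3 synapsins, which tether vesicles to each other, differed. Syn1 was lower in both tumor types (log2 fold changes -2.53 ± 0.30 in PDGFB tumors and -2.48 ± 0.30 in RAS tumors, edgeR adjusted p = 7.29e-06 and 4.64e-06), and so was Syn2 (-1.56 ± 0.45 and -2.77 ± 0.50, adjusted p = 0.00965 and 1.54e-04), although its call in PDGFB tumors was lost without normal brain 2 (adjusted p = 0.0536). Syn3 (ENSMUSG00000059602, chr10:86055125-86498896 in GRCm38, minus strand) had 567, 658, 590, 650 and 546 reads in PDGFB tumors and 1967, 1139, 1361, 1388 and 1509 in RAS tumors, against 1041, 856 and 991 in normal brain. PDGFB tumors lay below normal brain (-1.01 ± 0.16, edgeR adjusted p = 9.67e-05), and RAS tumors lay above it by their CPM (0.42 ± 0.17, adjusted p = 0.0409). The second call was lost with median-of-ratios scaling (0.0514), with no low-count filter (0.085), without normal brain 2 (0.0771) and without normal brain 3 (0.072). Timp3, an inhibitor of matrix metalloproteinases, lies inside Syn3 on the opposite strand and shares 1733 bases of exon with it. Timp3 had 6, 14, 9, 13 and 12 reads in PDGFB tumors and 28, 26, 22, 29 and 20 in RAS tumors, against 23, 11 and 17 in normal brain, an order of groups like that of Syn3 (log2 fold changes -0.97 ± 0.33 and 0.36 ± 0.31, adjusted p = 0.0216 and 0.329). Timp4, which lies inside Syn2 in the same way and shares 90 bases of exon, was lower in both tumor types (-2.64 ± 0.67 and -4.02 ± 0.71, adjusted p = 0.0039 and 1.32e-04), as Syn2 was.

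**Figure D4:**
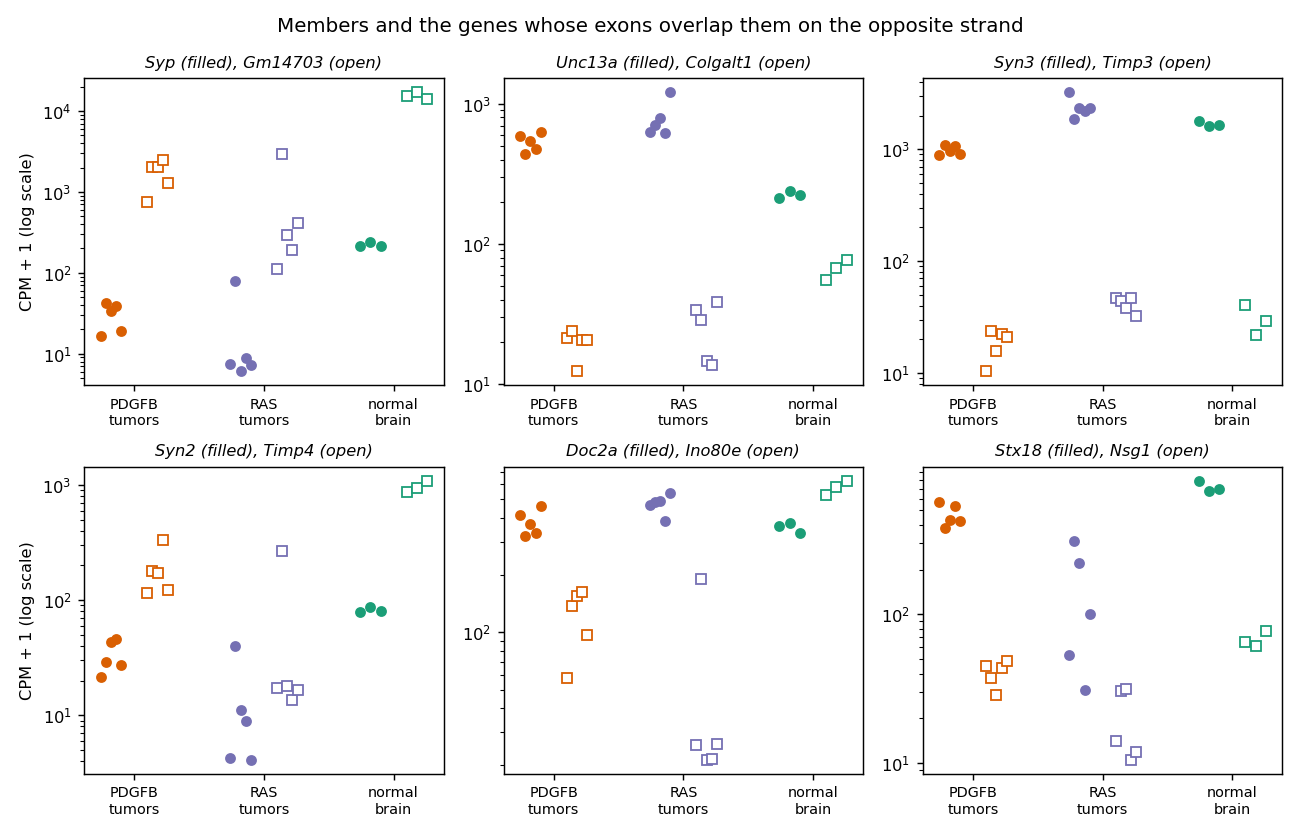
CPM + 1 per library (log axis) of 6 genes of the set (filled circles) beside the gene whose exons overlap theirs on the opposite strand (open squares), for PDGFB tumors, RAS tumors and normal brain. Syp with Gm14703 and Syn2 with Timp4 have the same order of groups in both genes of the pair, while Unc13a is highest in RAS tumors and Colgalt1 in normal brain.

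The other opposite-strand overlaps were of several kinds. Sv2b shares 47 bases head to head with the noncoding gene 1500012K07Rik, which was lower in both tumor types as Sv2b was (log2 fold changes -4.26 ± 0.67 and -4.33 ± 0.69, edgeR adjusted p = 8.72e-05 and 5.17e-05). Syn1 shares 9 bases tail to tail with Araf, a Raf kinase gene, which was lower in both as well (-1.82 ± 0.31 and -2.01 ± 0.32, adjusted p = 1.90e-04 and 5.31e-05). Snap47, a SNARE-domain protein of brain, was lower in both (-1.65 ± 0.39 and -2.29 ± 0.41, adjusted p = 0.00232 and 1.56e-04), while Jmjd4, which overlaps it head to head over 307 bases, was not called (0.99 ± 0.56 and -0.65 ± 0.63, adjusted p = 0.158 and 0.399). Rab3b shares 317 bases with 8030443G20Rik, and neither was called against normal brain. Among genes with too few reads to test, Doc2b overlaps Gm12339, Snap29 overlaps Pi4ka, Syt12 overlaps A930001C03Rik, Syt16 overlaps Gm29587 and Syt6 overlaps Atg4a-ps. Of these partners, Gm12339, Pi4ka and A930001C03Rik were lower in both tumor types, and Gm29587 was lower in RAS tumors (-3.11 ± 0.55, adjusted p = 1.47e-04). The partners of Syt7 (Gm26859) and Vamp9 (Gm22838) were not analysed here.

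Snap91 (AP180), the clathrin adaptor, had 18, 14, 8, 10 and 14 reads in PDGFB tumors and 1, 13, 1, 2 and 2 in RAS tumors, against 34, 33 and 22 in normal brain. Both tumor types were lower: PDGFB tumors (log2 fold change -1.55 ± 0.46, edgeR adjusted p = 0.0109) and RAS tumors (-3.14 ± 0.53, adjusted p = 8.97e-05). The PDGFB call was lost without normal brain 1 (adjusted p = 0.0632) or normal brain 2 (0.0737).

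The tumor types were also compared with each other. Of the 39 tested genes, 5 were higher in PDGFB tumors than in RAS tumors (Sv2c, Rims1, Snap91, Stx18 and Syt11), 5 were lower (Syt4, Syn3, Rab3a, Unc13a and Doc2a) and 29 were not called. With library totals in place of TMM factors the split was 6 higher and 3 lower. Over all genes tested, 14.6% were higher and 17.4% lower in PDGFB tumors (32.1% in either direction), so the share called here was not above that background. The 5 genes that were lower in PDGFB tumors all overlap an opposite-strand exon; among the 24 genes without such an exon, 4 were higher and 0 lower, beside 11.7% and 17.9% of all genes of that kind. Sv2c had the largest increase (log2 fold change 2.12 ± 0.49, edgeR adjusted p = 0.00302), and every PDGFB tumor lay above every RAS tumor. Syt11 was separated as completely (1.17 ± 0.31, adjusted p = 0.00839), and so were Stx18 (1.59 ± 0.41, adjusted p = 0.00685) and, in the other direction, Syn3 (-1.43 ± 0.15, adjusted p = 2.34e-06). Over all genes, 11.4% had all PDGFB tumors above all RAS tumors and 8.88% had all of them below. Stx18, a syntaxin of the endoplasmic reticulum, had 362, 231, 265, 322 and 255 reads in PDGFB tumors and 32, 190, 129, 19 and 64 in RAS tumors; its tail-to-tail partner Nsg1, an endosomal gene of neurons, was higher in PDGFB tumors too (0.95 ± 0.31, adjusted p = 0.0279). Its other opposite-strand gene, Gm42858, which lies inside it and shares 908 bases of exon, was not called between the tumor types (-0.04 ± 0.20, edgeR adjusted p = 0.906). Rims1 (2.09 ± 0.70, adjusted p = 0.0291) and Snap91 (1.59 ± 0.52, adjusted p = 0.0277) overlapped between the tumor types. Syt4 (-1.53 ± 0.42, adjusted p = 0.0101), Rab3a (-1.06 ± 0.34, adjusted p = 0.0251), Unc13a (-0.72 ± 0.20, adjusted p = 0.0104) and Doc2a (-0.46 ± 0.16, adjusted p = 0.0348) did so as well. Among these calls, Rims1 was lost without PDGFB tumor 4 or 5 or without RAS tumor 1, 4 or 5 (adjusted p = 0.0544 to 0.074), and Snap91 without PDGFB tumor 1 or 5 or without RAS tumor 1, 3, 4 or 5 (0.051 to 0.0678). Rab3a was lost without PDGFB tumor 1 (0.0672) or 4 (0.0637), and Doc2a without PDGFB tumor 1, 2, 3 or 4, without RAS tumor 3 or 5 or without any of the normal brains (0.0503 to 0.112).

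RAS tumor 2 decided how many genes differed between the tumor types. Without it, 16 of 38 tested genes were higher in PDGFB tumors and 5 were lower, against 5 and 5 of 39 with it. In that fit 20.3% of all genes were higher and 19.8% lower, against 14.6% and 17.4% with it. Its removal turned Syt1 from a log2 fold change of 0.73 ± 0.74 (edgeR adjusted p = 0.481) into one of 3.42 ± 0.58 (adjusted p = 1.29e-04). Snap25 moved likewise, to 2.74 ± 0.69 (adjusted p = 0.00395) without it, against 0.98 ± 0.75 (adjusted p = 0.339) with it. Syp reached 1.95 ± 0.37 (adjusted p = 3.92e-04) without it, against 0.38 ± 0.58 (adjusted p = 0.655) with it. Sv2b, whose RAS reads all came from that library, was at least 7.25-fold higher in PDGFB tumors without it, from a floor of 3 reads over the other 4 RAS tumors (edgeR adjusted p = 0.00491). The 12 neuron markers that overlap no opposite-strand exon (among them Rbfox3, Map2 and Camk2a) summed to 353 CPM in RAS tumor 2 and to 63.6 to 213 CPM in the other RAS tumors. Oligodendrocyte markers summed to 335 CPM in RAS tumor 2 and to 76.9 to 100.2 CPM in the other RAS tumors, and astrocyte markers to 650.0 CPM and to 114 to 227 CPM. The part of these 3 lists in the differences was not tested.

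Against normal brain, 29 of the 30 calls in RAS tumors and 26 of the 27 in PDGFB tumors were made again, in the same direction, without RAS tumor 2. The one not made again in either was Syt13, which was no longer tested, and Sv2c gained a call in PDGFB tumors. The size of the decrease in RAS tumors did depend on that library: 13 of the 38 genes moved by over 1.5 times without it, all of them to lower values. Syt1 reached a log2 fold change of -6.87 ± 0.50 (edgeR adjusted p = 1.62e-09), Snap25 -6.28 ± 0.66 (1.52e-07) and Cplx1 -5.64 ± 0.49 (1.41e-08). Syp reached -5.03 ± 0.35 (adjusted p = 1.18e-09), Cplx2 -4.95 ± 0.44 (2.03e-08) and Sv2a -4.76 ± 0.43 (2.03e-08). Stx4a, Snap91 and Syn2 had -4.44 ± 0.28, -4.28 ± 0.46 and -3.66 ± 0.40 (edgeR adjusted p = 3.41e-10, 2.21e-07 and 2.32e-07). Rab3c and Rph3a kept 1 read each over the other 4 RAS tumors. Their count ratios put those tumors 251-fold (95% counting interval 44.5 to 9980) and 243-fold (43.0 to 9639) below normal brain. Sv2b had no read there and was at least 49.8-fold lower, from a floor of 3 reads over the 4 tumors.

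**Figure D5:**
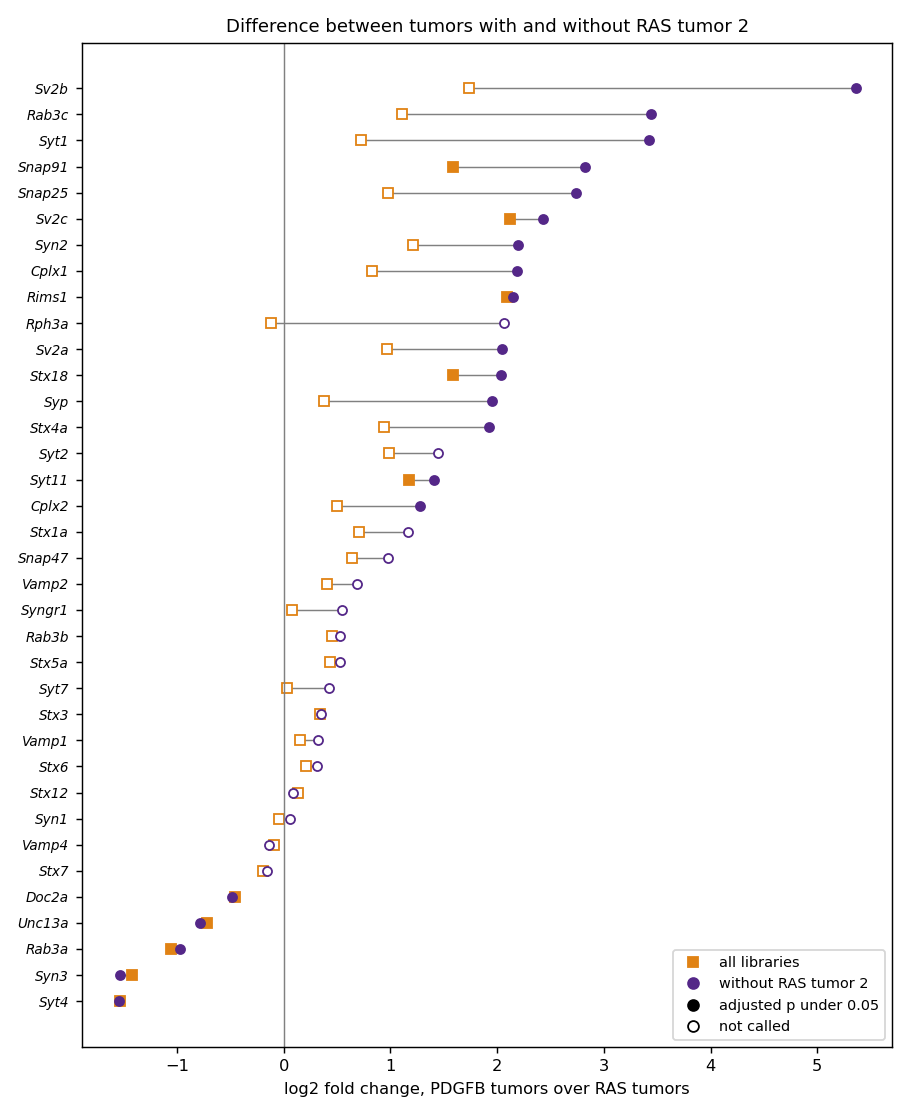
Log2 fold change between PDGFB tumors and RAS tumors (x axis) with all libraries (squares) and without RAS tumor 2 (circles) for 36 genes (rows); filled symbols have an adjusted p under 0.05. Synaptic genes such as Syt1 (0.73 and 3.42) and Snap25 (0.98 and 2.74) shift right without that tumor, while Syn3, Syt4 and Unc13a stay in place.

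Neuron markers moved with the synaptic genes. The 12 markers summed to 129 to 306 CPM in PDGFB tumors and 63.6 to 353 CPM in RAS tumors, against 1448 to 1604 CPM in normal brain. The 61 vesicle genes with no opposite-strand exon summed to 663 to 939 CPM and 348 to 909 CPM (348 to 566 without RAS tumor 2), against 2686 to 2912 CPM. Of the full list of 15 neuron markers, all tested, 13 were lower in PDGFB tumors and 12 in RAS tumors and none was higher. Shares over all genes tested were 25.1% lower in PDGFB tumors and 29.3% lower in RAS tumors. The list of 15 was not split by whether its genes passed the low-count filter only with the normal brain libraries. Its sum was 397 to 772 CPM in PDGFB tumors and 4044 to 8571 CPM in RAS tumors, against 5682 to 6156 CPM in normal brain, and within it Nefm, which overlaps Nefl on the opposite strand, averaged 276 ± 90.1 CPM in PDGFB tumors and 5069 ± 1991 CPM in RAS tumors, against 4164 ± 233 CPM in normal brain (SD, n = 5, 5 and 3). Sums for other cell types differed too. Oligodendrocyte markers (8 genes) summed to 137 to 223 CPM and 76.9 to 335 CPM, against 1009 to 1606 CPM, and astrocyte markers (7 genes) to 210 to 507 CPM and 114 to 650 CPM, against 616 to 785 CPM in normal brain. Oligodendrocyte precursor markers (7 genes) reached 766 to 1057 CPM in PDGFB tumors and 103 to 370 CPM in RAS tumors, against 126 to 146 CPM in normal brain. Macrophage and microglia markers (9 genes) reached 516 to 760 CPM in RAS tumors, and 253 to 331 CPM in PDGFB tumors, against 264 to 282 CPM in normal brain. The part of any of these in the values of the vesicle genes was not tested.

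Other genes of the vesicle cycle were read from 6 lists with 80 genes, of which 56 were tested. In PDGFB tumors 36 were lower and 1 higher than in normal brain, and in RAS tumors 34 were lower and 3 higher. The median log2 fold changes of the 56 were -1.39 and -1.46. These 56 were not split by whether they passed the low-count filter only with the normal brain libraries. Genes that did so would favor lower values in tumors. Over all genes tested, 25.1% were lower and 20.2% higher in PDGFB tumors, and 29.3% were lower and 26.9% higher in RAS tumors. Genes of vesicle loading (transmitter transporters and the proton pump) had 9 of 10 tested genes lower in PDGFB tumors and 8 of 10 in RAS tumors, with none higher. Slc17a7, the vesicular glutamate transporter of cortex, had 5, 17, 8, 33 and 5 reads in PDGFB tumors and 2, 27, 0, 2 and 1 in RAS tumors, against 95, 104 and 118 in normal brain (log2 fold changes -3.28 ± 0.67 and -4.23 ± 0.72, edgeR adjusted p = 7.33e-04 and 9.96e-05). Here too RAS tumor 2 held most of the RAS reads. Active zone genes had 7 of 11 lower in each tumor type and none higher; genes of priming and SNARE recycling had 7 of 8 lower in PDGFB tumors and 6 of 8 in RAS tumors. Vesicle membrane genes outside the set had 2 of 3 lower in each tumor type, and presynaptic adhesion genes 3 of 5 in PDGFB tumors and 4 of 5 in RAS tumors. Sncb, a synuclein, was lower in both (-4.05 ± 0.51 and -4.16 ± 0.53, adjusted p = 1.20e-05 and 6.28e-06).

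Endocytosis genes, many of which serve all cells, were more mixed, with 8 of 19 lower and 1 higher in PDGFB tumors and 7 lower and 3 higher in RAS tumors. The shares over all genes were 25.1% lower and 20.2% higher in PDGFB tumors, and 29.3% lower and 26.9% higher in RAS tumors. Dnm1, the dynamin of synapses that cuts vesicles from the membrane, had 5, 13, 12, 13 and 8 reads in PDGFB tumors and 10, 13, 15, 8 and 7 in RAS tumors, against 71, 113 and 98 in normal brain (log2 fold changes -3.53 ± 0.32 and -3.34 ± 0.32, edgeR adjusted p = 3.84e-07 and 3.86e-07). Sh3gl2 (endophilin A1), which recruits synaptojanin, was lower in both and was also higher in PDGFB tumors than in RAS tumors (1.83 ± 0.68, adjusted p = 0.0485). Between the tumor types, 6 of the 56 genes were higher and 6 lower in PDGFB tumors, which was not above the 14.6% and 17.4% of all genes tested. Sypl, a broadly expressed relative of synaptophysin, was lower in PDGFB tumors than in RAS tumors (-2.08 ± 0.51, adjusted p = 0.00515), with 2, 5, 2, 3 and 1 reads against 13, 12, 4, 15 and 8.

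The 43 genes left out of the test had at most 27 reads in any library. When the model was fitted with no low-count filter, 40 of them could be fitted, and against normal brain 1 was higher and 9 were lower in PDGFB tumors, and 3 were higher and 11 lower in RAS tumors. Over all 23301 genes of that fit, 8.37% were higher and 9.69% lower in PDGFB tumors, and 11.6% were higher and 12.9% lower in RAS tumors. The 3 that were higher are named here after their values were seen. Syngr2, the synaptogyrin of non-neuronal cells, had 6, 4, 6, 1 and 7 reads in PDGFB tumors and 8, 5, 8, 11 and 8 in RAS tumors, against 0 in every normal brain. From a floor of 3 reads over the normal brains together, it was at least 4.49-fold higher in PDGFB tumors (edgeR adjusted p = 0.00161 in the unfiltered fit) and at least 7.45-fold higher in RAS tumors (adjusted p = 2.93e-05). Vamp8, a SNARE of lysosomes and of secretion in immune cells, had 1, 2, 1, 2 and 2 reads in PDGFB tumors and 7, 11, 9, 7 and 27 in RAS tumors, against 4, 3 and 1 in normal brain. It was higher in RAS tumors than in normal brain (unfiltered log2 fold change 2.0, edgeR adjusted p = 0.0106) and lower in PDGFB tumors than in RAS tumors (-2.90, adjusted p = 1.65e-05). Snap23, the broadly expressed relative of Snap25, had 0, 5, 0, 5 and 3 reads in PDGFB tumors and 9, 11, 7, 4 and 3 in RAS tumors, against 1, 1 and 2 in normal brain, and was called in RAS tumors (2.12, adjusted p = 0.0415). Syt17 had no read in any PDGFB tumor, against 5, 6 and 6 in normal brain, and was at least 10.1-fold lower. Between the tumor types, Syt10 and Syt16 were higher and Vamp8 lower in PDGFB tumors in the unfiltered fit, in which 6.74% of all genes were higher and 6.69% lower. Syt10 had 2, 9, 1, 0 and 4 reads in PDGFB tumors and none in any RAS tumor, at least 5.35-fold higher (edgeR adjusted p = 0.00358). Syt16 had 8, 5, 3, 7 and 3 reads in PDGFB tumors and 0, 1, 0, 0 and 2 in RAS tumors, a count ratio of 8.70 (95% counting interval 2.67 to 44.9; adjusted p = 0.00483). These genes, too, were named after their values were seen.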

How the data were processed

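Polyadenylated RNA of 13 pieces of tissue was isolated with Trizol and made into libraries with the TruSeq RNA Sample Prep kit, per the labels' protocols. The authors deposited raw counts, whole reads per Ensembl gene with no normalization; fastp 0.22.0, STAR 2.7.9a and the build GRCm38 come from the submitters' processing notes, and the annotation and strand setting of the count are not given in the sources used here. Lines for unmapped, multimapping, unassigned and ambiguous reads stayed out of library sizes. Tumor groups and numbers came from titles and genotypes, normal brain from its tissue label, numbered in accession order.

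Symbols and exons came from GENCODE M21 (52135 genes matched, 3281 not). Counts were fitted with edgeR 4.0.16 (R 4.3.3): filterByExpr (minimum count 10, minimum total 15), TMM factors, and its quasi-likelihood test on a model with a mean for each of the 3 groups, fitted to the 13 libraries together. Tests were two-sided, and a call is an adjusted p (Benjamini-Hochberg) under 0.05; the script was tested on simulated data. CPM used the reads counted for genes. Floors are 3 reads over a group, intervals are exact at 95%, and both cover counting error alone: with no molecular identifiers, copies of 1 molecule can be counted more than once. No 2 libraries of a group agreed within sampling noise (lowest chi-square per degree of freedom 1.69).

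The genes and lists were chosen with earlier results of these data known. Full values were given to Snap25, Rph3a and Syt1, to the most abundant tested gene of each family, and, in each comparison, to at most 8 called genes per direction, those with the largest change, with any gene called in opposite directions; up to 3 genes per comparison were named from the other lists. Stx4a, Syn1, Syn2, Timp4, Dnm1 and other genes set beside a named one were named for their place in a family, list or overlap. A few genes that the rule selects are left out of the text and figures, and counts and sums include them. Alternatives were median-of-ratios factors, library totals, other low-count filters, DESeq2 1.42.0, the 2 compared groups alone, genes with no opposite-strand exon, stricter calls, leaving out each library, and the replicate number as a block.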

Additional observations from a re-analysis of the deposited data

Results flagged for a closer look

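Values of RAS tumor 2 lay far from the other 4 RAS tumors in 10 of the 25 genes whose libraries were checked for outlying values, by Dixon's ratio of gap to range at its 95% level, which chance passes in about 1 in 20 groups. These were Cplx1 (27.9 CPM), Cplx2 (80.4 CPM), Rab3c (13.1 CPM), Rph3a (11.5 CPM), Snap25 (68.9 CPM), Snap91 (21.3 CPM), Sv2a (18.1 CPM), Sv2b (11.5 CPM), Syp (77.1 CPM) and Syt1 (54.2 CPM). In each, RAS tumor 2 was the highest RAS tumor and lay below all normal brains.

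The change against normal brain differed between the tumor types, PDGFB minus RAS on the log2 scale and tested as the contrast of the tumors (edgeR adjusted p under 0.05), for 10 of the 39 tested genes. It was positive for Sv2c (2.12), Rims1 (2.09), Snap91 (1.59), Stx18 (1.59) and Syt11 (1.17). It was negative for Syt4 (-1.53), Syn3 (-1.43), Rab3a (-1.06), Unc13a (-0.72) and Doc2a (-0.46). Both changes share the same normal brains, which cancel in the difference. Over all genes tested, 32.1% were called in this contrast, so the share here was not above that background. The calls of Doc2a, Snap91, Rims1, Rab3a and Syt4 were lost in 12, 6, 5, 4 and 1 of the alternative fits.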

How the results depend on the processing

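In no alternative did a called value of the 25 fully reported genes change sign, and 1413 of their recomputed values stayed on their side of the threshold, while 40 lost and 21 gained a call. Against normal brain, leaving out each library in turn gave 25 to 28 genes called in PDGFB tumors and 28 to 32 in RAS tumors. Fits of genes with no opposite-strand exon alone, 23 of them tested, called 16 in PDGFB tumors (1 higher, 15 lower) and 16 in RAS tumors (0 higher, 16 lower), fewer because fewer genes were tested. With no low-count filter, 38 genes were called in PDGFB tumors and 43 in RAS tumors. Between the tumor types, an adjusted p under 0.01 left 4 genes (3 higher, 1 lower in PDGFB tumors), genes with no opposite-strand exon alone gave 4 (4 higher, 0 lower), no filter gave 15 (11 higher, 4 lower), and library totals gave 9 (6 higher, 3 lower). Leaving out each library gave 7 to 21 genes: 21 without RAS tumor 2 and 7 to 11 without any other single library. Library totals in place of TMM factors moved the median of all genes by 0.23 in PDGFB tumors and 0.09 in RAS tumors against normal brain and by 0.14 between tumors (log2), and the values near 0 (Stx3, Vamp4, Doc2a) took either sign. Calls near the threshold were Syt13 in RAS tumors against normal brain (lost in 15 alternatives) and, between tumors, Doc2a (lost in 12), Snap91 (6), Rims1 (5) and Rab3a (4), with DESeq2 giving no adjusted p for Syt1 against normal brain.

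Tumors of the same number deviated together weakly or not at all (correlations of 0.14, -0.003, -0.027, -0.13 and 0.07). These values cannot show whether a number marks a shared litter or day. The replicate number as a block called 10 genes between tumors (6 higher, 4 lower in PDGFB tumors). In that edgeR fit Syt4 no longer passed (adjusted p = 0.0586), while Stx4a (0.0343) and Syn2 (0.0447) did.

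Depth limits the set: members without a test had at most 27 reads in any library, so their differences were mostly not detectable here, and no read in a group allows up to 3 reads over it.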
